A study of Drosophila melanogaster with 16 samples.

Results

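The circadian clock genes described here are 10 genes of the molecular clock of Drosophila melanogaster: Clk, cyc, Pdp1, per, tim, vri, cwo, cry, dco and jet. Their chromatin accessibility was taken from 39 of the 8069 ATAC-seq peaks in the authors' deposited table of 25 °C against 11 °C. A peak was counted for a gene when its midpoint lay inside the gene or within 1 kb of either end, with gene spans from RefSeq on the assembly that dm6 is based on. All 10 genes had at least 1 peak, from 1 each at cyc, per and cry to 18 at Pdp1.

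ATAC-seq cuts open chromatin with a transposase, so DNA that is more accessible gives more reads. The libraries came from dissected fat body, the fly's organ of fat storage and secretion, of w1118 virgin females kept for 25 days at 25 °C or at 11 °C. At each temperature the flies received vapour of ethanol or of S-methoprene, a juvenile hormone analog, in ethanol, which gives 4 groups of 4 libraries with 25 pooled flies per library. Flies were kept for dissection only if their ovaries looked right for their group: regressed at 11 °C with ethanol, and large at 25 °C with either vapour and at 11 °C with S-methoprene. The deposited table gives 1 mean per temperature and no value per library, so ethanol and S-methoprene could not be compared, and temperature and ovary state cannot be told apart. The hour of dissection and the light regime, which bear on clock genes, are not given in the sources used here.

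In the fly clock, the transcription factors Clock (Clk) and Cycle (cyc) pair on DNA and switch on the genes of their own repressors. Period (per) and Timeless (tim) build up, enter the nucleus and block the pair. A second loop sets Clk itself: Vrille (vri) represses the gene and PAR-domain protein 1 (Pdp1) activates it, both through basic leucine zippers. Clockwork orange (cwo) represses the targets of Clk and cyc, and cryptochrome (cry) is a blue-light receptor that also represses in some clocks outside the brain. The kinase gene dco (double-time) and the F-box gene jet (jetlag) act on the turnover of per and tim proteins. The fat body has its own clock, which shapes feeding and metabolic rhythms, and Pdp1 is also known there as a regulator of growth.

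Accessibility at clock genes differed between the temperatures in both directions. At a false discovery rate (FDR, the authors' p-value adjusted over all 8069 peaks) under 0.05, 8 of the 39 peaks had more reads at 25 °C and 5 had more at 11 °C. The 8 lay in Pdp1 (5), vri (2) and Clk (1), and the 5 lay 1 each in per, tim, vri, cwo and Pdp1. Of all peaks in the data 22.2% were called, with 12.2% toward 25 °C and 10.0% toward 11 °C, against 20.5% and 12.8% of the clock peaks. At an FDR under 0.01 the clock counts were 5 and 4, with backgrounds of 8.55% and 6.35%, and with a difference of at least 0.5 required besides an FDR under 0.05 they were 5 and 3 (8.19% and 4.73%). Leaving out the 25% of peaks with the fewest reads gave 4 and 5 (8.13% and 10.7%). The median difference in log2 reads, 25 °C minus 11 °C, was -0.06 over the clock peaks, with 19 peaks above 0 and 20 below. For all peaks of the table the median was -0.02. Below, a difference is always in log2 mean normalised reads with 25 °C first, and reads, fitted fold changes and FDRs are the authors' values. With no value per library, the FDR is the only measure of replicate error, and a difference in bulk tissue does not separate a change in every cell from a change in the cells present.

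**Figure D1:**
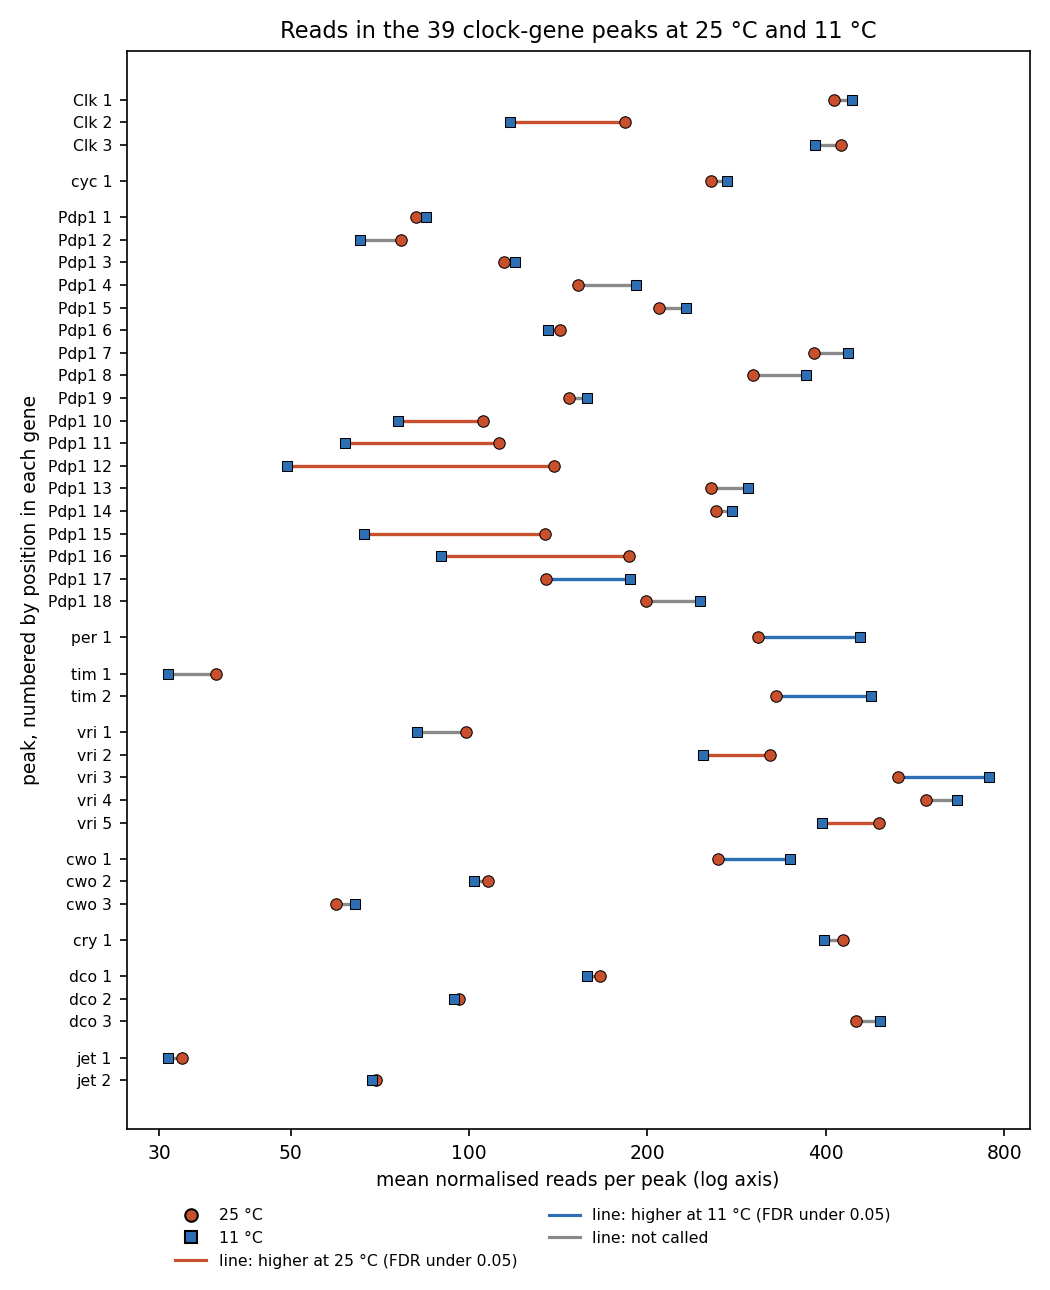
Mean normalised reads (log axis) of each of the 39 clock-gene peaks at 25 °C (circles) and 11 °C (squares), with genes in the order of their roles and peaks numbered along each gene by coordinate. A red line marks the 8 peaks higher at 25 °C and a blue line the 5 higher at 11 °C at an FDR under 0.05, and peak 12 of Pdp1 has the widest gap, 139 against 49.4 reads.

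The positive limb comes first. Clk, which encodes the bHLH-PAS activator at the head of the loop, spans 3L 7763233 to 7775603 and held 3 peaks, all in its upper-coordinate part. The peak inside the gene at 7773521 to 7773921 had 183 reads at 25 °C and 117 at 11 °C, a difference of 0.64 (1.56-fold). In the authors' deposited table its fitted log2 fold change was 0.58 with an FDR of 0.000176. It was the least accessible of the 3 and the one called. The peak 1.383 kb below it had 413 reads at 25 °C and 443 at 11 °C (FDR 0.585 in the authors' deposited table). The third, 67 bp outside the gene's upper end, had 424 and 383 (FDR 0.303 in the same authors' deposited table). These were at percentiles 95.2 and 93.5 of the table by reads.

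The partner gene cyc spans 3L 19813770 to 19815938, and its single peak lay 268 bp inside the upper end, within reach of the gene Fibp as well. It had 256 reads at 25 °C and 273 at 11 °C, with an FDR of 0.737 in the authors' deposited table, and was not called.

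Pdp1 carried the largest differences of the set. The gene spans 3L 7811458 to 7867369, 55912 bp with 13 RefSeq transcripts, and its 18 peaks were within reach of no other gene. Only 1 gene in the table had more peaks, among 9364 genes with a peak. Summed over the 18 peaks, reads were nearly equal, 3136 at 25 °C and 3143 at 11 °C. Single peaks did differ, in both directions: 5 had more reads at 25 °C, 1 had more at 11 °C and 12 were not called.

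Toward its lower-coordinate end Pdp1 held no called peak. Its 9 peaks, numbered 1 to 9 and lying 2.188 to 25.786 kb above the lower end, had differences of -0.32 to 0.23 with a median of -0.10. Among them were the most accessible peaks of the gene, peak 7 with 381 reads at 25 °C and 436 at 11 °C and peak 8 with 302 and 370. The smallest FDR of the 9 in the authors' deposited table was 0.0571, at peak 4, which had 153 reads at 25 °C and 191 at 11 °C.

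After a gap of 9.726 kb came 3 neighbouring peaks, all higher at 25 °C. Peak 10 (7846770 to 7847170) had 106 reads at 25 °C and 75.9 at 11 °C, and the authors' deposited table gives it an FDR of 0.0102. Peak 11 (7849769 to 7850169) had 112 and 61.7 reads, a difference of 0.86, with an FDR of 1.09e-08 in the authors' deposited table. Peak 12 (7850871 to 7851271) had 139 reads at 25 °C and 49.4 at 11 °C, 2.82-fold, which is the largest difference at a clock gene. In the authors' deposited table its fitted log2 fold change was 1.45 with an FDR of 1.90e-18. By the difference of log2 reads toward 25 °C it stood at rank 60 of the 8069 peaks. Across these 4.101 kb the difference was 0.48, then 0.86, then 1.50.

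The next pair, peaks 13 and 14, broke this run. They were about as accessible at both temperatures, with 256 reads at 25 °C and 296 at 11 °C for peak 13 and 261 and 278 for peak 14, and FDRs of 0.347 and 0.731 in the authors' deposited table. Both held more reads than any of the 5 peaks higher at 25 °C.

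Then 2 more peaks were higher at 25 °C, 1.49 kb apart. Peak 15 (7862246 to 7862646) had 134 reads at 25 °C and 66.6 at 11 °C, with an FDR of 1.22e-08 in the authors' deposited table. Peak 16 (7863736 to 7864136) had 186 and 89.8 reads, with an FDR of 3.18e-14 in the same authors' deposited table. Reads were thus 2.02-fold higher in the warm at peak 15 and 2.07-fold higher at peak 16. Only 1.53 kb further on the direction turned: peak 17 (7865266 to 7865666) had 135 reads at 25 °C and 187 at 11 °C, a difference of -0.47 with an FDR of 0.00439 in the authors' deposited table. Peak 18, which lies 66 bp inside the upper end of the gene, had 199 reads at 25 °C and 245 at 11 °C and just missed the call (FDR 0.0541 in the authors' deposited table).

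**Figure D2:**
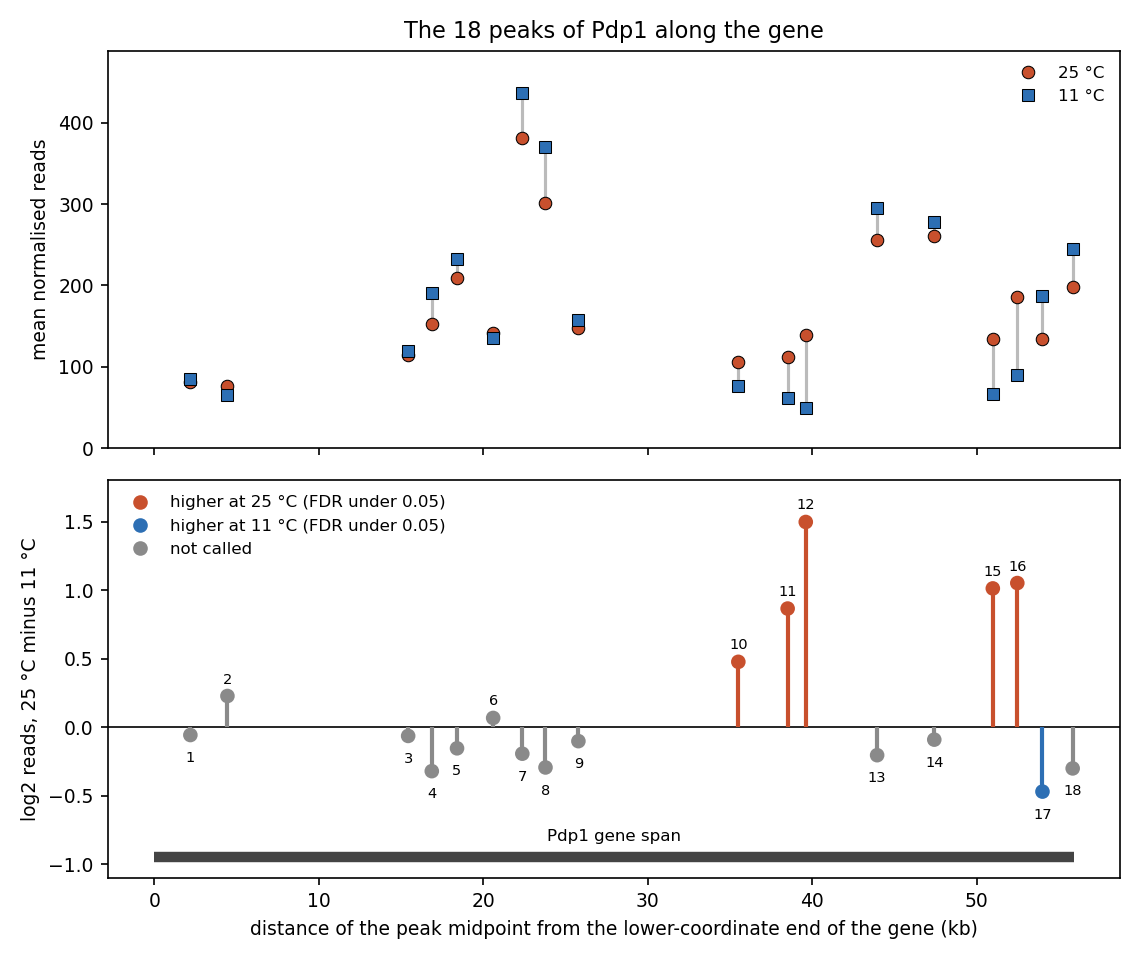
The 18 peaks of Pdp1 by distance of their midpoint from the gene's lower-coordinate end (kb): mean normalised reads at 25 °C (circles) and 11 °C (squares) above, and the log2 difference below, coloured by call at an FDR under 0.05. The 5 peaks higher at 25 °C (10, 11, 12, 15 and 16) lie between 35.512 and 52.478 kb, with the uncalled peaks 13 and 14 among them and peak 17, higher at 11 °C, just beyond.

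The 5 warm peaks of Pdp1 were weak to middling ones. Over all libraries used they held 83.4 to 131 reads, below the table's median of 163, while the other 13 peaks of the gene ranged from 70.3 to 413. Weak peaks were more often called toward 25 °C throughout the table: 24.2% of the peaks in the lowest 25% by reads were called toward 25 °C, against 3.87% of those in the highest 25%. Of the 5, peaks 10, 11, 12 and 15 lay in that lowest 25%. Subtracting the median difference of peaks of like read number left 0.44 to 1.46 at the 5 peaks. Of the 20 genes with 10 or more peaks, 4 had 5 or more peaks higher at 25 °C, Pdp1 being 1 of them, so such a number is not particular to it.

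Among the repressors, per, tim, vri and cwo each had 1 peak higher at 11 °C, and cry had none. The gene per, whose protein blocks Clk and cyc, spans X 2685580 to 2692780, and its single peak (2685352 to 2685752) sits across the lower-coordinate end, with the midpoint 28 bp outside. It had 307 reads at 25 °C and 457 at 11 °C, so it was 1.49-fold more accessible in the cold. The difference was -0.57, the most negative at a clock gene, and the authors' deposited table gives a fitted log2 fold change of -0.53 with an FDR of 2.93e-06.

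The gene tim, whose protein pairs with per and is destroyed in light, spans 2L 3493986 to 3508119 and had 2 peaks. The peak 732 bp inside its upper end (3507187 to 3507587) had 330 reads at 25 °C and 477 at 11 °C, 1.45-fold more in the cold. In the authors' deposited table its fitted log2 fold change was -0.48 with an FDR of 1.05e-05. The other peak of tim was among the weakest of the set, with 37.5 reads at 25 °C and 31.0 at 11 °C, and was not called (FDR 0.452 in the authors' deposited table).

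In vri, the repressor of Clk, both directions occurred within 1 gene (2L 5288944 to 5311223). The peak at 5303298 to 5303698 had 529 reads at 25 °C and 753 at 11 °C, a difference of -0.51 with an FDR of 0.000176 in the authors' deposited table. Over all libraries used it had the most reads of any clock-gene peak, at percentile 99.5 of the table. A neighbour 3.183 kb further up (5306481 to 5306881) went the other way, with 493 reads at 25 °C and 395 at 11 °C (FDR 0.0329 in the authors' deposited table). Between them lay a peak with 590 and 665 reads that was not called (FDR 0.253 in the authors' deposited table). A more distant peak (5292949 to 5293349) was also higher at 25 °C, with 322 reads against 248 and an FDR of 0.012 in the authors' deposited table. The last one, at the lower end of vri and shared with a pair of long noncoding RNA genes, had 98.9 and 81.6 reads and was not called (FDR 0.106 in the authors' deposited table). Both warm calls in vri were small, 1.30-fold and 1.25-fold.

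**Figure D3:**
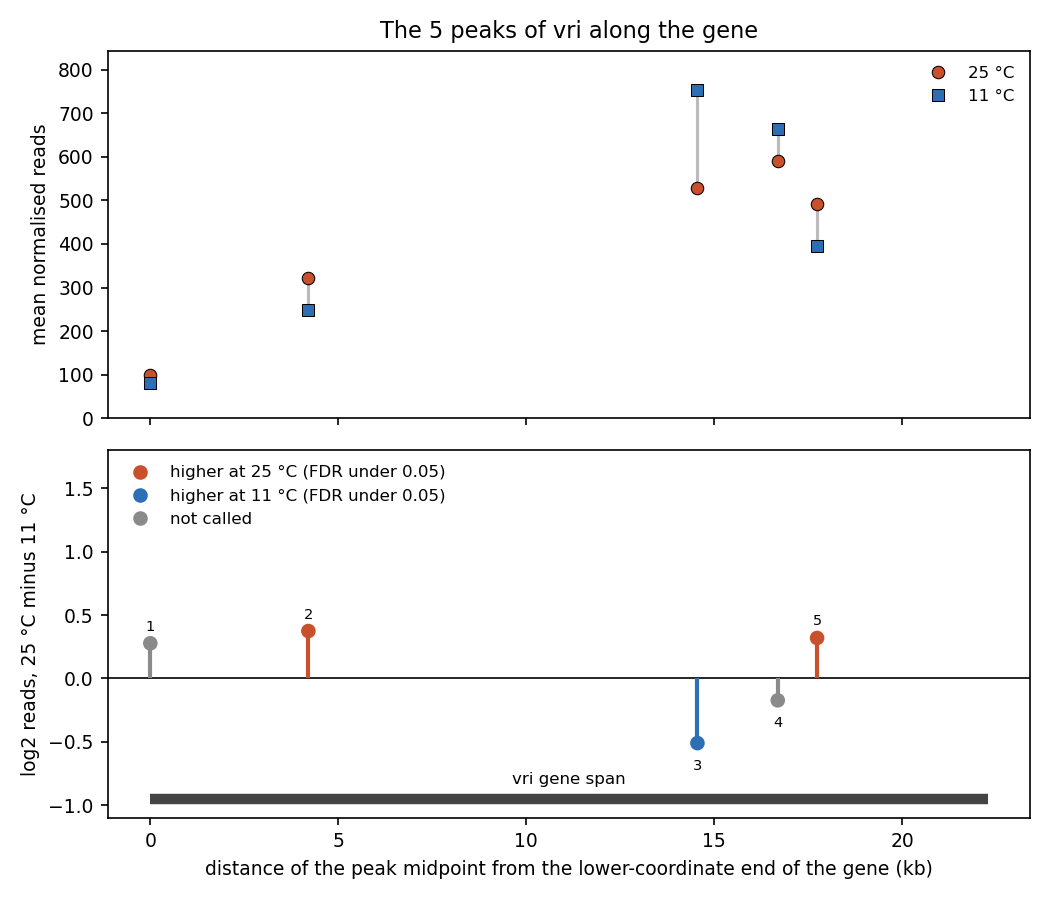
The 5 peaks of vri by distance of their midpoint from the gene's lower-coordinate end (kb), with mean normalised reads at 25 °C (circles) and 11 °C (squares) above and the log2 difference below. Peak 3, higher at 11 °C (529 against 753 reads), and peak 5, higher at 25 °C (493 against 395), lie 3.183 kb apart.

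The E-box repressor gene cwo spans 3R 10388258 to 10400752 and had 3 peaks. Its most accessible one (10393323 to 10393723) had 263 reads at 25 °C and 348 at 11 °C, a difference of -0.40 with an FDR of 0.0234 in the authors' deposited table. The others had 107 against 102 and 59.7 against 64.1 reads at 25 °C and 11 °C, and the authors' deposited table lists FDRs of 0.727 and 0.839 for them. The photoreceptor gene cry, at 3R 19212154 to 19215442, had a single accessible peak 383 bp outside its lower end, in reach of a long noncoding RNA gene too. It had 428 reads at 25 °C and 398 at 11 °C and was not called (FDR 0.510 in the authors' deposited table).

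The genes of protein turnover showed no call. At dco, which encodes the casein kinase that marks per protein for destruction (3R 31054085 to 31061210), the 3 peaks had 166, 96.0 and 450 reads at 25 °C and 158, 94.4 and 493 at 11 °C. Their smallest FDR in the authors' deposited table was 0.419. At jet, which encodes an F-box protein that acts on tim in light (2L 4948206 to 4949784), the 2 peaks had 32.7 and 69.6 reads at 25 °C and 31.0 and 68.5 at 11 °C. Both peaks of jet lie within reach of a neighbouring gene, and the smaller of their FDRs in the authors' deposited table was 0.873. All 5 turnover peaks had differences between -0.13 and 0.08.

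Set side by side, the positive limb (Clk, cyc and Pdp1) had 6 of 22 peaks called toward 25 °C and 1 toward 11 °C. The repressors (per, tim, vri, cwo and cry) had 2 of 12 called toward 25 °C and 4 toward 11 °C. As shares these are 27.3% and 4.55% for the positive limb and 16.7% and 33.3% for the repressors, against 12.2% and 10.0% of all peaks. The limbs differed in read number, with a median of 159 reads per peak in the positive limb and 352 among the repressors. In the lowest 25% of the table by reads, 24.2% were called toward 25 °C and 7.83% toward 11 °C. In the highest 25% the shares were 3.87% and 12.7%, so the whole-table shares are matched to neither limb. Pdp1 supplied 18 of the 22 peaks of the positive limb and 5 of its 6 warm calls, so that limb's counts rest largely on that gene. Clk and cyc alone had 1 of 4 peaks called toward 25 °C (25%) and 0 toward 11 °C. The medians did not follow the calls: -0.08 over the positive limb and -0.01 over the repressors. Peaks of 1 gene are not replicates, and the difference between the limbs was not tested.

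**Figure D4:**
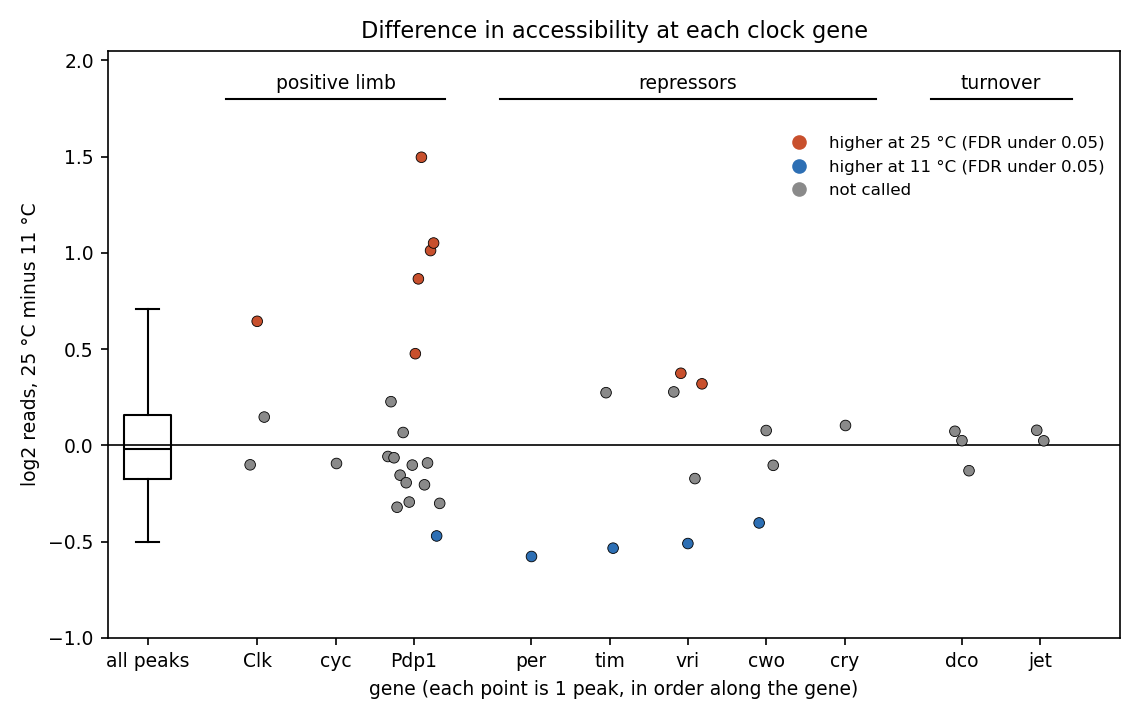
Difference in log2 mean normalised reads, 25 °C minus 11 °C, of each clock-gene peak (points, in order along the gene, coloured by call at an FDR under 0.05), with genes grouped by role. The box shows the quartiles and median of all 8069 peaks with whiskers at percentiles 5 and 95 (-0.50 and 0.71). Pdp1 reaches 1.50, while per, tim, vri and cwo each have 1 point between -0.57 and -0.40.

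A pattern seen after the values were known concerns the most accessible peak of each gene, by reads over all libraries used. In per, tim, vri and cwo this peak was higher at 11 °C, and in none of the 10 genes was it called toward 25 °C. In Clk, cyc, Pdp1, cry, dco and jet it was not called. For cyc, per and cry it was the only peak of the gene. Those of per, tim, vri and cwo were in the 25% of the table with the most reads, in which 12.7% were called toward 11 °C and 3.87% toward 25 °C. With the median of peaks of like read number subtracted, the differences at per, tim, vri and cwo were -0.44, -0.41, -0.38 and -0.34. By reads at 25 °C alone, the top peak was instead peak 4 in vri (590 reads) and peak 3 in Clk (424 reads), neither of them called.

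**Figure D5:**
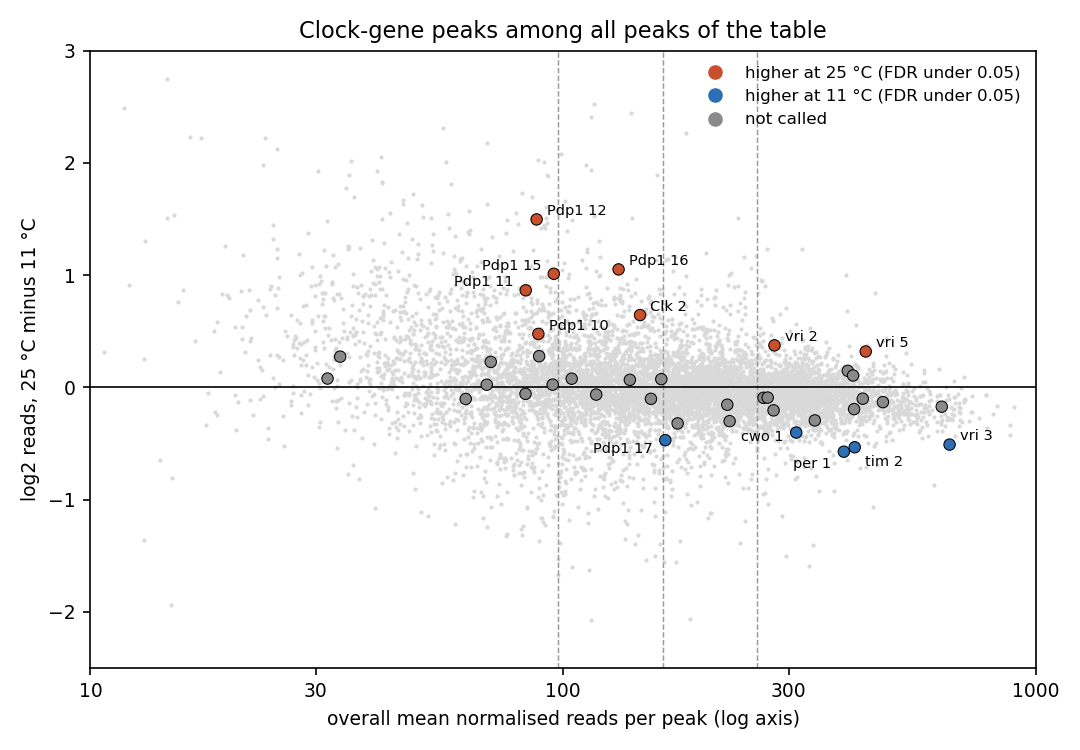
Difference in log2 mean normalised reads against reads per peak over all libraries used (log axis), for all peaks of the table (grey, with 68 outside the axes) and the 39 clock-gene peaks, those called being named. Dashed lines mark the quartiles of reads (97.4, 163 and 257). The warm peaks of Pdp1 lie left of the median and the cold peaks of per, tim, vri and cwo right of the upper quartile. Warm peaks 2 and 5 of vri (280 and 437 reads) also lie right of the upper quartile, and cold peak 17 of Pdp1 (165 reads) lies near the median.

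The clock peaks differed from the table in where they lie, a feature the choice of members used only in part. Their midpoint was within 500 bp of some gene end in 25.6% of cases, against 62.9% of all peaks, and the closest end of any gene was at a median of 4205 bp, against 160 bp. Pdp1 alone supplies 18 of the 39. Only 10 of the 39 clock peaks lay within 500 bp of an end of their own gene. Of the 8 peaks higher at 25 °C none did, and of the 5 higher at 11 °C only that of per did. The shares called near and away from gene ends over the whole table were not computed. These counts therefore show no link between calls and distance from an end. All 13 called peaks lay within reach of no gene other than the clock gene, as did 33 of the 39 clock peaks, called or not. The share over all peaks of the table is not given here. The RefSeq table used gives no strand, so which end is a transcription start is not stated.

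Beyond the core, 39 further genes tied to the fly clock were read in the same way. Of these, 32 had a peak, 84 peaks in all, of which 10 were called toward 25 °C and as many toward 11 °C. This is 11.9% each way, close to the shares of the whole table. Their median difference was -0.02. On genes, 6 of the 32 had a warm peak and 6 a cold one, with 1 counted in both, against 12.6% and 11.1% of all genes with a peak. These shares are not matched for peaks per gene. The 32 genes held 84 peaks, 21 of them at Eip75B and 9 at sgg, while 9364 genes shared the 8069 peaks of the table. A gene with more peaks has more chances of a call.

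Kinases and a phosphatase subunit that act on per and tim proteins were among them. The gene sgg, the fly GSK3 that phosphorylates tim protein, had 3 of its 9 peaks higher at 11 °C. The most changed of these had 91.0 reads at 25 °C and 150 at 11 °C, with an FDR of 1.31e-06 in the authors' deposited table. Its neighbour on the X chromosome is per, 6.026 kb away, and no peak lies between the windows of these genes. The phosphatase 2A subunit gene wdb had 62.4 and 99.9 reads at its called peak (FDR 0.00546 in the authors' deposited table). The other way went CkIIalpha, a subunit of casein kinase 2, with 217 reads at 25 °C and 164 at 11 °C, and nmo, the Nemo kinase gene, with 376 and 280 at a peak beside a tRNA gene. Their FDRs in the authors' deposited table were 0.022 and 0.00177.

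Of the genes of protein degradation, CSN5, a subunit of the COP9 signalosome, was higher at 11 °C, with 109 reads against 149 at a peak shared with CG42232 (FDR 0.00899 in the authors' deposited table). The ubiquitin ligase gene ctrip, which affects Clk protein levels, was higher at 25 °C at 1 of 3 peaks, with 374 reads against 296 (FDR 0.00274 in the authors' deposited table). Among transcription and chromatin genes, Eip75B, a nuclear receptor gene of the ecdysone response, had 5 peaks higher at 25 °C and 3 at 11 °C of 21. The peak with the largest of these, 364 reads at 25 °C and 188 at 11 °C, had an FDR of 1.46e-10 in the authors' deposited table. The single peak of nej, the fly CBP acetyltransferase gene, was higher at 11 °C, with 679 reads against 872 (FDR 0.000899 in the authors' deposited table). A weak peak of the transcription factor gene Mef2 was higher at 25 °C, with 42.6 reads against 21.5 (FDR 0.000572 in the authors' deposited table).

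In the input and output group, norpA, the phospholipase C of phototransduction, had 292 reads at 25 °C and 175 at 11 °C at 1 of 3 peaks (FDR 4.23e-09 in the authors' deposited table). The light-input gene qsm was higher at 11 °C, with 117 against 167 reads at a peak shared with 3 other genes (FDR 0.00121 in the authors' deposited table). No peak was listed at Pdf, which encodes the neuropeptide of brain clock neurons, nor at the output gene to, nor at gl, na, Nlf-1, Fer2 and Sin3A.

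The labelled tissue was checked on marker genes by the same rule. Of 12 fat body markers 10 had a peak, among them apolpp, Yp1, Yp2, Yp3 and srp, while Fbp1 and Fbp2 had none. A peak was also found at 4 of 5 oenocyte, 5 of 7 neuron, 1 of 7 muscle and 1 of 5 hemocyte markers, and at 2 of the 6 germ line and follicle markers found in the gene table. Of all 17807 genes on the chromosomes used, 9364 had a peak, so these counts alone do not identify the tissue. Summed reads over the peaks of each list, at 25 °C and 11 °C, were 7189 and 5435 for fat body, 1682 and 1488 for oenocyte, 1008 and 1087 for neuron, 52.6 and 22.0 for muscle, 295 and 314 for hemocyte and 565 and 579 for germ line and follicle. Called toward 25 °C were 8 of 30 fat body, 4 of 8 oenocyte and 1 of 6 neuron peaks and the single muscle peak. Toward 11 °C 2 fat body and 2 neuron peaks were called, and no hemocyte or germ line and follicle peak was called either way. The shares of the whole table were 12.2% and 10.0%. The fat body markers were mixed. Sums were higher at 25 °C for apolpp (1723 against 750), Yp1, Yp2, Yp3 and FASN1. They were higher at 11 °C for srp (754 at 25 °C against 959), Lsp1beta (123 against 206), Lsp2, fon and bmm. Called peaks lay at apolpp, Yp1 and Yp3 toward 25 °C and at srp and Lsp1beta toward 11 °C. No peak of Yp2, FASN1, Lsp2, fon or bmm was called. Accessibility at a gene does not show that it is expressed, and the part of the makeup of the tissue in the differences at clock genes was not tested.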

How the data were processed

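ATAC-seq libraries were made from fat body in 4 groups of 4. The tools named in the submitters' processing notes are DiffBind, MACS2, Bowtie2 with SAMtools, Picard and bedtools, and FastQC, cutadapt and Trim Galore for reads, and the build is dm6. Versions, the transposase shift, treatment of duplicates and scaling are not given in the sources used here, and scaling can shift all differences by 1 amount. Per the file headers, the deposited table holds log2 mean normalised reads per peak (all libraries used, 25 °C, 11 °C), a fitted log2 fold change, a p-value and its FDR. The mean of all weighs 25 °C by 0.429, as 3 against 4 or 6 against 8 libraries would, so not all 8 libraries at 25 °C entered. Which did is not stated, and depth per library is unknown.

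No model was refitted. Reads are 2 to the power of the deposited log2 values, and a difference is that of 25 °C minus that of 11 °C. The authors' fitted fold change has a slope of 0.805 on it over all peaks, and is the smaller of these values at each of the 13 called clock peaks. Peaks were assigned by midpoint (1000 bp window) to genes of the RefSeq table of Release 6 plus ISO1 MT, and called at an FDR under 0.05. Members and lists were chosen with earlier results of these data known. All 10 members and all their peaks are named, and of the 39 further genes those with a called peak. Assignment was tested on simulated data. Python 3.11.15, numpy 2.4.6, pandas 2.3.3, scipy 1.17.1 and matplotlib 3.10.9 were used. Alternatives were other windows, overlap in place of midpoint, unshared peaks, read number, centring, thresholds, pseudocounts and gene means.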

Additional observations from a re-analysis of the deposited data

How the results depend on the processing

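The direction of a call is by definition the sign of the authors' fitted fold change, and the difference had the same sign at every clock peak. The 13 called clock peaks kept their direction with differences centred on peaks of like read number. The medians subtracted were smaller in size than every called difference (per went from -0.57 to -0.44). No direction could have turned, so this centring was no check of direction. At an FDR under 0.01, 4 of them lost the call: Pdp1 peak 10, vri peaks 2 and 5, and the cwo peak. Peaks higher at 25 °C then numbered 5, also 5 with a difference of at least 0.5 required, and 4 without the 25% of peaks with the fewest reads, where the whole table gave 8.55%, 8.19% and 8.13%. Peaks higher at 11 °C numbered 3 with that minimum difference (4.73% of the table). In the other alternatives both counts stayed within 1.5 times. The median over the clock peaks was 0.020 when taken over gene means. The median of the positive limb minus that of the repressors was -0.065, and its sign turned in 5 alternatives: 0.074 with unshared peaks, 0.071 without the weakest 25%, 0.29 over gene means, 0.040 without Pdp1 and 0.026 without cry. The limbs' medians therefore carry no stable order. No paired analysis was possible because only means per temperature were analysed, and for the same reason no replicate could be left out and no count scaling compared. Unknown depth per library limits what can be said of weak peaks such as those of jet.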

Other observations

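Clk and Pdp1 are near neighbours on chromosome arm 3L, with 35.854 kb between them. The stretch outside both windows held 6 peaks, all in reach of the gene CG32369. Of these 1 was called, where 22.2% of all peaks were. It was higher at 11 °C, with 313 reads at 25 °C and 414 at 11 °C and an FDR of 0.0107 in the authors' deposited table. The other 5 had differences between -0.20 and 0.20. The warm peaks of Clk and Pdp1 are therefore not part of an unbroken run of such peaks.

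Up to 10 kb outside the 10 genes, beyond the 1 kb windows, lay 14 further peaks, of which 1 was higher at 25 °C and 1 at 11 °C. Of all peaks 12.2% were called toward 25 °C and 10.0% toward 11 °C, so these flanks are not rich in calls. The cold one, 3376 bp above the upper end of cwo and in reach of CG6325, had 119 reads at 25 °C and 266 at 11 °C, a difference of -1.16 with an FDR of 0.00489 in the authors' deposited table. That is larger than the difference of any peak counted for cwo. The warm one, 4746 bp above cry and in reach of vib, had 44.7 and 25.1 reads and an FDR of 0.00485 in the authors' deposited table.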
